A study of Mus musculus with 11 samples.

Results

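The 31 genes described here make, take up, store and export cholesterol, and their levels were compared between mouse livers that carried a microRNA decoy and livers that carried a control sequence. The members were listed by symbol for their known function, with earlier results of these data known. They are 18 enzymes of sterol synthesis, 5 genes of the SREBP machinery that senses sterols, 4 genes of sterol carriage, receptor control and storage, and 4 genes of LXR signaling and sterol efflux. All 31 were found among the 13669 genes of the count table, and all 31 were among the 13334 genes that passed the filter on low counts and were tested.

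RNA came from liver tissue of male mice, each of which had received a recombinant adeno-associated virus (rAAV8). Its transcript was driven by the liver-specific LP1 promoter. The study describes its main decoy experiments in wild-type C57BL/6J mice on regular chow, and used other cohorts as well. Its legend for the RNA sequencing names only male animals given the virus. Strain, genotype and diet are therefore taken from the main experiments. In 6 livers the virus expressed a tough decoy (AAV-TuD), a hairpin RNA with a binding site for *miR-379* and another for *miR-541*. In 5 livers it expressed a negative control sequence (AAV-NC), so that both groups carried the virus and no liver was without it. The mice were adult, bought young, acclimated and housed in shared cages, and the methods for the decoy describe a fast of several hours before the livers were taken, some weeks to months after the injection. The exact age, time since injection and cage of each of the 11 animals are not given in the sources used here. The p-values measure the spread between these livers, treated as independent. Any likeness of cage mates is not accounted for. Libraries were made from 500 ng of total RNA with a kit that reads the 3′ ends of polyadenylated transcripts, which does not measure the mature microRNAs that the decoy binds.

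Cholesterol is built in the cytosol and endoplasmic reticulum from acetyl-CoA by way of mevalonate, farnesyl diphosphate, squalene and lanosterol, and the liver is a main site of this synthesis. When sterols in the endoplasmic reticulum are scarce, SCAP carries the SREBP transcription factors to the Golgi for cleavage, and the freed factors switch on most of the synthesis enzymes. INSIG proteins hold the complex back when sterols are plentiful. When sterols are abundant, their oxidised derivatives activate LXR, which switches on the efflux transporters ABCA1, ABCG5 and ABCG8.

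Total reads lay between 8148531 and 12043959 per liver, and the major urinary protein (Mup) genes took 38.6% of the reads of AAV-NC 7, 30.9% of AAV-TuD 3 and 28.4% of AAV-TuD 5 against 8.09% to 18.7% in the other 8. Levels are given as CPM, reads scaled to a common library size with TMM factors, and these factors lay between 0.667 and 1.24. Of 36 listed markers of liver cell types 33 were tested, and none of these was at 0 reads in any liver. The summed hepatocyte markers, *Alb* and *Ttr* being the most abundant of them, ranged from 35042 to 40664 CPM in AAV-NC and from 43128 to 50935 CPM in AAV-TuD livers. Most of this difference was *Alb* (mean 21096 against 28044 CPM, adjusted p = 0.081, edgeR), and of the 8 markers 4 had fold changes above 0, 4 below, and 1, *Cyp3a11*, was called higher. In the AAV-TuD group, 7 of 7 hepatic stellate cell markers were called higher (summed level 172 to 240.3 CPM against 313 to 440.4 CPM), as were 5 of 7 Kupffer cell and macrophage markers (71.6 to 114 CPM against 85.9 to 254 CPM) and all 4 tested of 5 cholangiocyte markers (20.3 to 40.9 CPM against 47.5 to 79.3 CPM). None of 6 sinusoidal endothelial markers was called (219.8 to 242 CPM against 225 to 241 CPM), nor was the 1 neutrophil marker tested of 3. The part of these cell type differences in the results was not tested. In bulk liver RNA more cells of a type and more RNA per cell cannot be told apart.

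Of the 18 synthesis enzymes 6 rose and 12 were not called, and no member outside synthesis rose. In the AAV-TuD group, 6 of the 31 genes (19.4%) were higher at an adjusted p below 0.05 (edgeR's quasi-likelihood test, Benjamini-Hochberg over all genes tested), beside 966 of all 13334 genes (7.24%). All 6 were enzymes: *Hmgcs1*, *Idi1*, *Sqle*, *Tm7sf2*, *Msmo1* and *Nsdhl*. A single member was lower, the exporter *Abca1*, and this share was near the 4.33% of all genes that were lower. The remaining 24 members passed the test in neither direction, and 7 of 31 were called in all beside 11.6% of all genes. The fold change was above 0 for 17 of the 18 enzymes, with a median of 0.38 on the log2 scale. It was above 0 for 6 of the 13 other members, with a median of -0.01, and for 6608 of all 13334 genes, with a median of -0.00. Scaled by library size alone, which moved the median of all genes to 0.23 and the share of calls that were higher from 62.6% to 95.1%, 12 members were higher and none was lower: *Abca1* was no longer called, and *Mvk*, *Mvd*, *Fdps*, *Fdft1*, *Dhcr7* and *Insig2* were called with the same 6. With the 3 livers richest in Mup reads left out, an alternative added after the data were seen, 3 members were higher, among them *Scarb1*, and 1 was lower. In this fit of fewer livers *Hmgcs1*, *Idi1*, *Sqle* and *Tm7sf2* were not called (adjusted p from 0.082 to 0.10), with log2 fold changes of 0.77, 0.70, 0.51 and 0.33 beside 0.81, 0.74, 0.56 and 0.36 with all livers.

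**Figure D1:**
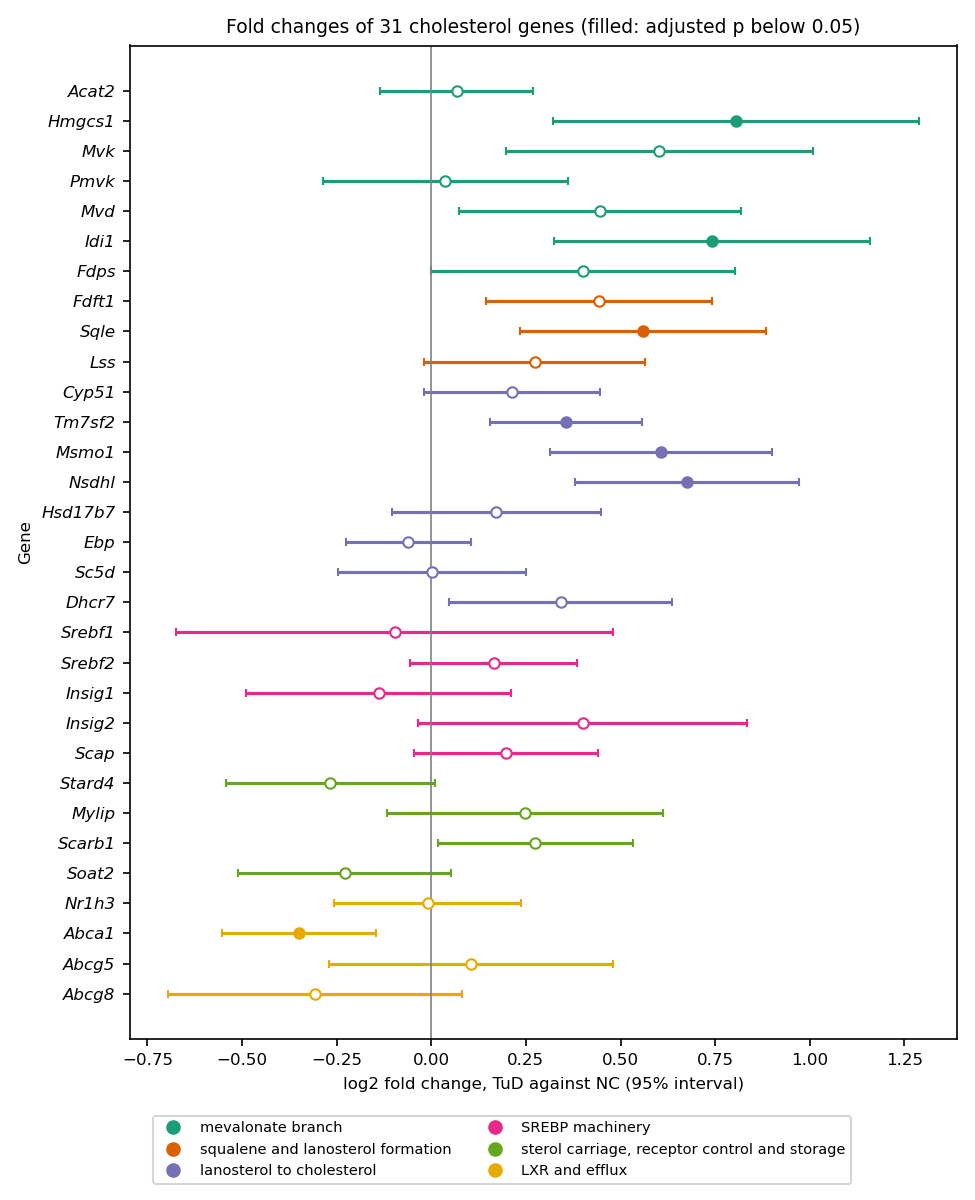
Log2 fold change of each of the 31 genes (AAV-TuD against AAV-NC, horizontal axis) with its 95% interval, coloured by branch and filled where the adjusted p was below 0.05. The 6 filled enzyme points lie between 0.36 and 0.81 and the filled *Abca1* point lies at -0.35, while the other 24 points are open.

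The promoters of the genes whose groups of livers did not overlap, and that of the enzyme with the highest fold change, are shown for the motifs known from sterol genes. They are the 250 bases before the annotated start in RefSeq (GRCm38.p6), written along the strand of the gene. Capitals mark matches to the core of the sterol regulatory element (TCACNCCAC), the NF-Y box (CCAAT, or ATTGG where it lies on the other strand) and the E-box (CACGTG). *Hmgcs1* lies at chr13:119690101-119690350 on the plus strand, *Msmo1* at chr8:64733579-64733828 on the minus strand, *Nsdhl* at chrX:72918271-72918520 on the plus strand and *Abca1* at chr4:53159896-53160145 on the minus strand.
Hmgcs1: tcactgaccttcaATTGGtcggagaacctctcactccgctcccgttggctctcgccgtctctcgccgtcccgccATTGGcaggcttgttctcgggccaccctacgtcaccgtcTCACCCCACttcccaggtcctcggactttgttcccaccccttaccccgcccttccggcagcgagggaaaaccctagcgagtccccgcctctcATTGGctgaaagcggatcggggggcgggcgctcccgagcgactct
Msmo1: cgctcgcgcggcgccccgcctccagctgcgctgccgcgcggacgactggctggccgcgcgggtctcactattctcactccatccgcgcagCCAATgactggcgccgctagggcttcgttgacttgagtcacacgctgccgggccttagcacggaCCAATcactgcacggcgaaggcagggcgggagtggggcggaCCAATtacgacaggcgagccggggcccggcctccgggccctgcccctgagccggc
Nsdhl: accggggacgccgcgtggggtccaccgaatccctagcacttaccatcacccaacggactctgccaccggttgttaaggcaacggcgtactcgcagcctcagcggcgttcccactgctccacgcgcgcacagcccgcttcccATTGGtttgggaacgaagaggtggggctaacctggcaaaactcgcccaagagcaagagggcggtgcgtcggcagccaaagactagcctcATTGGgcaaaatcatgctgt
Abca1: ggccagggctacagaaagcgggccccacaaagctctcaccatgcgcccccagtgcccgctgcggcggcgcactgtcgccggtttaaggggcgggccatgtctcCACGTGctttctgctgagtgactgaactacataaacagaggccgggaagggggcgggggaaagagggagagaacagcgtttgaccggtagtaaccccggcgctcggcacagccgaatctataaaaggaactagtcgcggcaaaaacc

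Windows that also held the 50 bases after the start were found for 25 of the 31 members. *Fdps*, *Fdft1*, *Sqle*, *Stard4*, *Scarb1* and *Soat2* had no window and were not searched. Motifs were counted on both strands by gene. CCAAT stood in 21 of the 25 members (84%), including all 8 enzymes that turn lanosterol into cholesterol, beside 41.1% of the 27025 genes with a window. CACGTG stood in 6 members (24%), which were *Abca1*, *Dhcr7*, *Hsd17b7*, *Insig1*, *Sc5d* and *Scap*, beside 8.09% of genes. The letters TCACNCCAC stood in *Hmgcs1* alone of the 25, 137 bases before its start, beside 1.44% of genes, and the factor's other binding letters were not searched. These are matches of letters in short windows, which do not show that a factor binds there.

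The microRNAs for which the decoy carries binding sites are shown because the members were also searched for matches to their seeds. Capitals mark the seed, bases 2 to 8 of the mature sequence in RefSeq.
miR-379-5p: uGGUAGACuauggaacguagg
miR-541-5p: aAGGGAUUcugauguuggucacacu

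The longest annotated 3′ UTR held the match to the seed of *miR-379-5p* (GTCTACC) in 0 of the 31 members, and the match to the seed of *miR-541-5p* (AATCCCT) in 0 of 31. Of all 10935 tested genes with an annotated UTR, 5.72% and 9.51% held these matches. At such shares few of 31 members would hold a match. Whether 0 is fewer than these shares would give was not tested, and UTR lengths were not compared. The study reports that the decoy also lowered host transcripts and other microRNAs of the same genomic cluster. Matches to those microRNAs were not searched, nor were sites outside the 3′ UTR.

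In the mevalonate branch, which turns acetyl-CoA into farnesyl diphosphate, 2 of 7 enzymes rose and none fell, with a median log2 fold change of 0.45. *Hmgcs1* (chr13:119690379-119708260, GRCm38), the cytosolic synthase that joins acetyl-CoA and acetoacetyl-CoA ahead of mevalonate, stood at 110.4, 213, 74.9, 90.6 and 119.8 CPM in AAV-NC livers 1, 2, 6, 7 and 8. The AAV-TuD livers ranged from 160.1 to 309.6 CPM, with a median of 207 CPM. The groups overlapped through AAV-NC 2, above which 3 of 6 AAV-TuD livers lay. The mean rose from 122 ± 53.9 (SD, n = 5) to 213 ± 54.6 CPM (n = 6), a log2 fold change of 0.81 ± 0.23 (SE, adjusted p = 0.032, edgeR quasi-likelihood test), the highest of the members. The call was lost when any of AAV-NC 1, 6, 7 or 8 or AAV-TuD 4, 5 or 11 was left out, with log2 fold changes from 0.67 to 0.80 and adjusted p from 0.054 to 0.079.

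*Idi1* (chr13:8885501-8892451), the isomerase that makes dimethylallyl diphosphate, stood at 38.0, 46.7, 23.9, 26.5 and 30.5 CPM in AAV-NC livers 1, 2, 6, 7 and 8. In the AAV-TuD livers its level ran from 36.0 to 79.6 CPM around a median of 53.5 CPM. Of these, 4 of 6 lay above every AAV-NC liver, and AAV-TuD 10 was the lowest. Its log2 fold change was 0.74 ± 0.20 (SE, adjusted p = 0.023, edgeR), and the call was lost without AAV-TuD 4 (0.61, adjusted p = 0.055), AAV-NC 6 (0.64, adjusted p = 0.061) or AAV-NC 7 (0.67, adjusted p = 0.056). Reads of *Idi1* are uncertain because 424 bases near its 3′ end are 100% identical to the processed pseudogene *Gm13502*. That pseudogene held 1377 reads over the 11 livers beside 5115 for *Idi1* and was itself higher (log2 fold change 0.65, adjusted p = 0.038).

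The other 5 enzymes of the branch were not called. *Mvk*, mevalonate kinase, was counted with 77.5 reads per liver on average and stood at 3.70 to 9.19 CPM in AAV-NC and 6.86 to 10.7 CPM in AAV-TuD livers. It had a log2 fold change of 0.60 (95% interval 0.20 to 1.01) that just missed the threshold (adjusted p = 0.053). *Mvd*, the mevalonate diphosphate decarboxylase, had a log2 fold change of 0.45 (0.07 to 0.82, adjusted p = 0.11) and *Fdps*, farnesyl diphosphate synthase, one of 0.40 (adjusted p = 0.19). Each of the 3 passed the threshold without AAV-NC 2, whose levels of them were the highest of its group (*Mvk* 0.81, adjusted p = 0.0096; *Mvd* 0.59, adjusted p = 0.039; *Fdps* 0.59, adjusted p = 0.041). *Mvk* also passed it without AAV-TuD 3 (0.67, adjusted p = 0.031) and by DESeq2 (0.60, adjusted p = 0.028). *Acat2*, the thiolase of the opening step, and *Pmvk*, phosphomevalonate kinase, lay close to 0, at 0.07 (-0.13 to 0.27) and 0.04 (-0.29 to 0.36). Reads of *Acat2* and *Fdps* are uncertain. The 3′ end of *Acat2* is 98.7% identical to sequence of *Acat3* over 453 bases and of *Tcp1* over 445 bases. That of *Fdps* is up to 99.1% identical to processed pseudogenes. It is also 100% identical over 600 bases to the protein-coding gene *Gm43738*, which shares 1124 exonic bases with *Fdps* on the same strand.

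Between farnesyl diphosphate and lanosterol 1 of 3 enzymes was called. *Sqle* (chr15:59315077-59331192), squalene epoxidase, which adds the oxygen needed for ring closure and is a known control point of the pathway, stood at 29.8, 41.5, 23.0, 27.5 and 44.8 CPM in AAV-NC livers 1, 2, 6, 7 and 8. With AAV-TuD it lay between 41.9 and 59.0 CPM, the median being 48.5 CPM. The groups overlapped only through AAV-NC 8, and 4 of 6 AAV-TuD livers lay above it. The log2 fold change was 0.56 ± 0.15 (SE, adjusted p = 0.027, edgeR), and it was not called when any of AAV-NC 1, 6 or 7 or AAV-TuD 4 or 10 was left out (0.45 to 0.53, adjusted p from 0.057 to 0.066).

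*Fdft1*, squalene synthase, had a log2 fold change of 0.44 (95% interval 0.14 to 0.74, adjusted p = 0.053), with 4 of 6 AAV-TuD livers above the highest AAV-NC liver. It was called with upper-quartile scaling (0.45, adjusted p = 0.049), by DESeq2 (0.44, adjusted p = 0.033), without AAV-NC 2 (0.56, adjusted p = 0.017) and without AAV-TuD 3 (0.51, adjusted p = 0.023). Its transcripts overlap those of *Ctsb* on the opposite strand over 774 exonic bases. The strand setting of the counting is not given in the sources used here, so reads of these genes cannot be told apart there. *Ctsb* was not called (log2 fold change 0.04, adjusted p = 0.86). *Lss*, lanosterol synthase, lay at 0.27 (-0.02 to 0.57, adjusted p = 0.22).

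**Figure D2:**
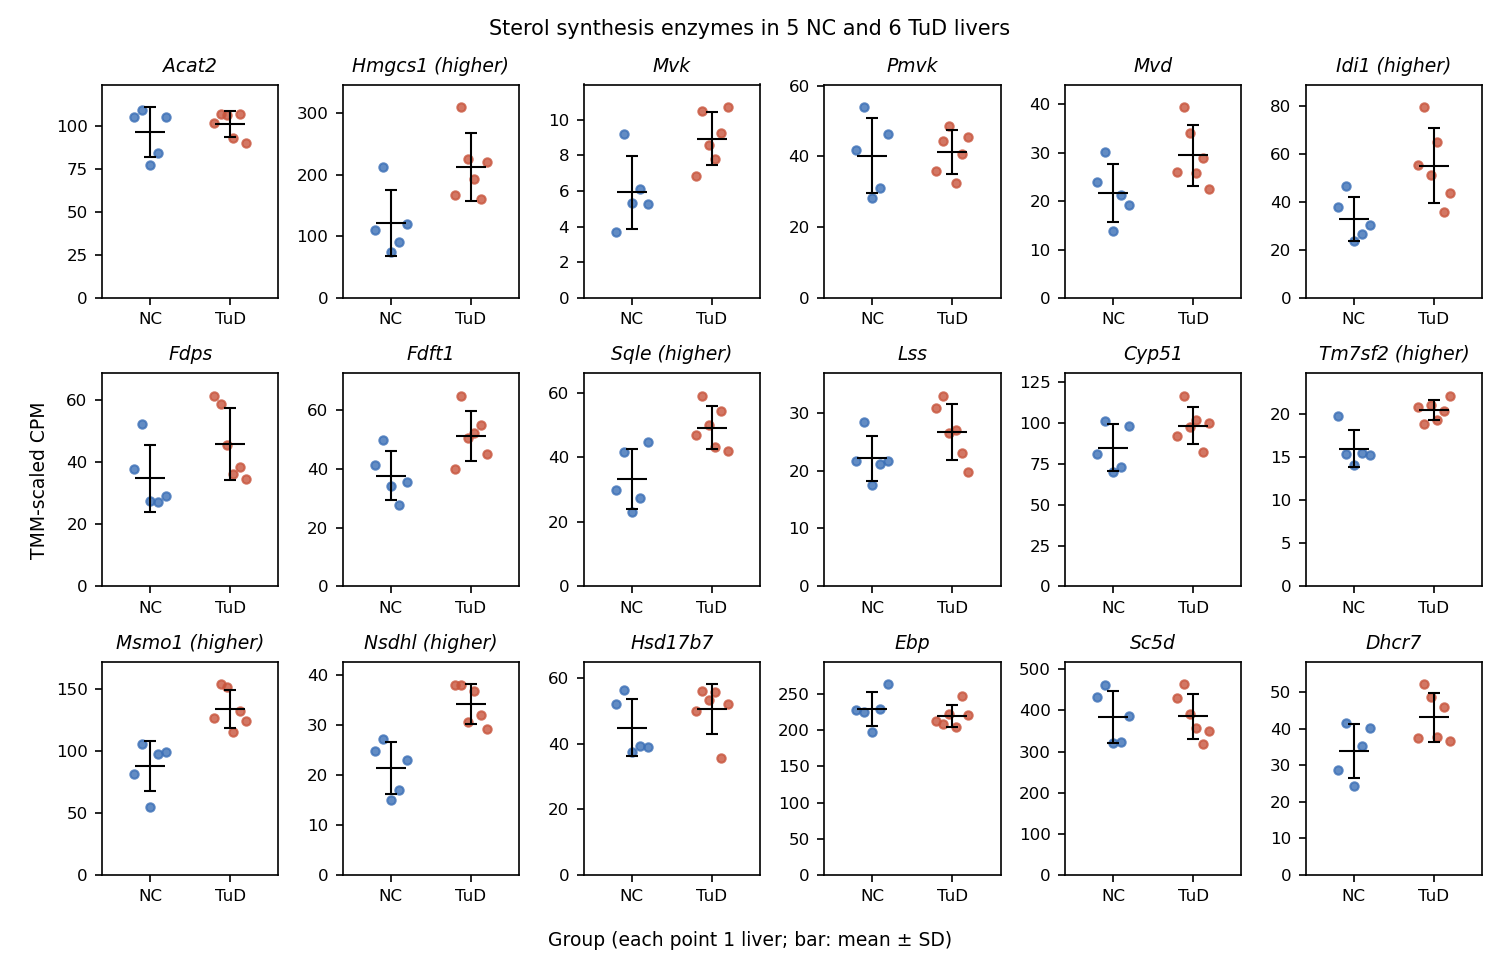
TMM-scaled CPM (vertical axes, from 0) of the 18 synthesis enzymes in 5 AAV-NC (NC) and 6 AAV-TuD (TuD) livers, each point 1 liver, with the mean and SD as bars. The groups separate completely for *Msmo1* and *Nsdhl* and overlap for the other 16 enzymes.

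From lanosterol to cholesterol 3 of 8 enzymes rose. Among them were the only members whose AAV-TuD livers all lay above all AAV-NC livers, *Msmo1* and *Nsdhl*. Such a separation occurred in 4.11% of all genes, and 2 of 31 members is a count close to that share. *Msmo1* and *Nsdhl* encode the monooxygenase and the dehydrogenase that act in turn to strip methyl groups from the sterol ring. *Msmo1* (chr8:64718139-64733792) stood at 81.5, 105.6, 54.9, 97.3 and 98.9 CPM in AAV-NC livers 1, 2, 6, 7 and 8. The AAV-TuD livers began just above, at 115 CPM, and reached 153 CPM, with a median of 129 CPM. Its mean rose from 87.6 ± 20.3 (SD, n = 5) to 134 ± 15.6 CPM (n = 6), a log2 fold change of 0.61 ± 0.14 (SE, adjusted p = 0.011, edgeR).

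*Nsdhl* (chrX:72918557-72958514) stood at 24.7, 27.1, 14.9, 17.0 and 23.0 CPM in the same AAV-NC livers. The AAV-TuD livers ranged from 29.1 to 38.0 CPM, with a median of 34.4 CPM. Its mean rose from 21.3 ± 5.16 (SD, n = 5) to 34.1 ± 3.99 CPM (n = 6), a log2 fold change of 0.68 ± 0.14 (SE) with the smallest adjusted p of the members (0.0064, edgeR). Both genes were called under every alternative run. Leaving out single livers gave log2 fold changes from 0.48 to 0.68 for *Msmo1* (adjusted p at most 0.030) and from 0.57 to 0.77 for *Nsdhl* (at most 0.018).

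*Tm7sf2* (chr19:6062821-6068373), a sterol reductase that follows the lanosterol demethylase, changed by less but with little spread. It stood at 19.7, 15.4, 14.1, 15.4 and 15.2 CPM in AAV-NC livers 1, 2, 6, 7 and 8, and between 18.9 and 22.1 CPM in the AAV-TuD livers. All AAV-TuD livers lay above the AAV-NC livers other than AAV-NC 1, and 4 of 6 lay above that one too. The log2 fold change was 0.36 ± 0.095 (SE, adjusted p = 0.024, edgeR), and the call was lost when any of AAV-NC 2, 6, 7 or 8 or AAV-TuD 11 was left out (0.31 to 0.34, adjusted p from 0.051 to 0.067). The gene shares 532 exonic bases with *Vps51* on the same strand. Near its 3′ end 379 bases are 100% identical to sequence of *Vps51*, so reads of *Tm7sf2* are uncertain. Over the 11 livers 114 reads were counted for *Vps51* beside 2051 for *Tm7sf2*.

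The other 5 enzymes of this stretch were not called. *Dhcr7*, which reduces dehydrocholesterol to cholesterol, had a log2 fold change of 0.34 (95% interval 0.05 to 0.64, adjusted p = 0.12), and *Cyp51*, the lanosterol demethylase, one of 0.21 (-0.02 to 0.44). *Hsd17b7*, the ketosterol reductase that works with NSDHL, lay at 0.17 (-0.10 to 0.45). *Ebp*, the sterol isomerase, lay at -0.06 (-0.23 to 0.11) and *Sc5d*, the sterol desaturase, at 0.0018 (-0.25 to 0.25), although both were well counted, with 2242 and 3845 reads per liver on average. *Cyp51* overlaps *Akap9* on the opposite strand over 166 exonic bases, and *Akap9* was not called (-0.20, adjusted p = 0.096). The intervals of *Ebp* and *Sc5d* leave out the fold changes of *Msmo1* and *Nsdhl*, and the difference between genes was not itself tested.

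Livers tended to be high or low in many enzymes at once. Among the AAV-NC livers AAV-NC 2 was the highest in 15 of 18 enzymes and AAV-NC 6 the lowest in 15 of 18. Among the AAV-TuD livers AAV-TuD 4 was the highest in 12 of 18 and AAV-TuD 11 the lowest in 7. Of the 18 enzymes *Sc5d* and *Ebp* were the most abundant and so weigh most in a sum, and neither was called. The summed level of the 18 enzymes was 1402, 1669, 1059, 1192 and 1423 CPM in AAV-NC livers 1, 2, 6, 7 and 8. It ranged from 1465 to 1913 CPM with a median of 1545 CPM in the AAV-TuD livers. AAV-NC 2 thus lay within the range of the AAV-TuD livers, and the other 4 AAV-NC livers lay below it. By replicate number, AAV-TuD 3, 4 and 5 (1580, 1913 and 1664 CPM) lay above AAV-TuD 9, 10 and 11 (1503, 1465 and 1510 CPM). In AAV-NC livers the order was less clear, since AAV-NC 8 lay above AAV-NC 1. The labels name no batch, and a part of replicate order in these levels was not tested. Leaving out AAV-NC 2 gave 9 members called higher, and leaving out AAV-TuD 3 gave 8. Leaving out AAV-TuD 4 gave 3, and leaving out AAV-NC 6 or AAV-NC 7 gave 2, which were *Msmo1* and *Nsdhl*.

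**Figure D3:**
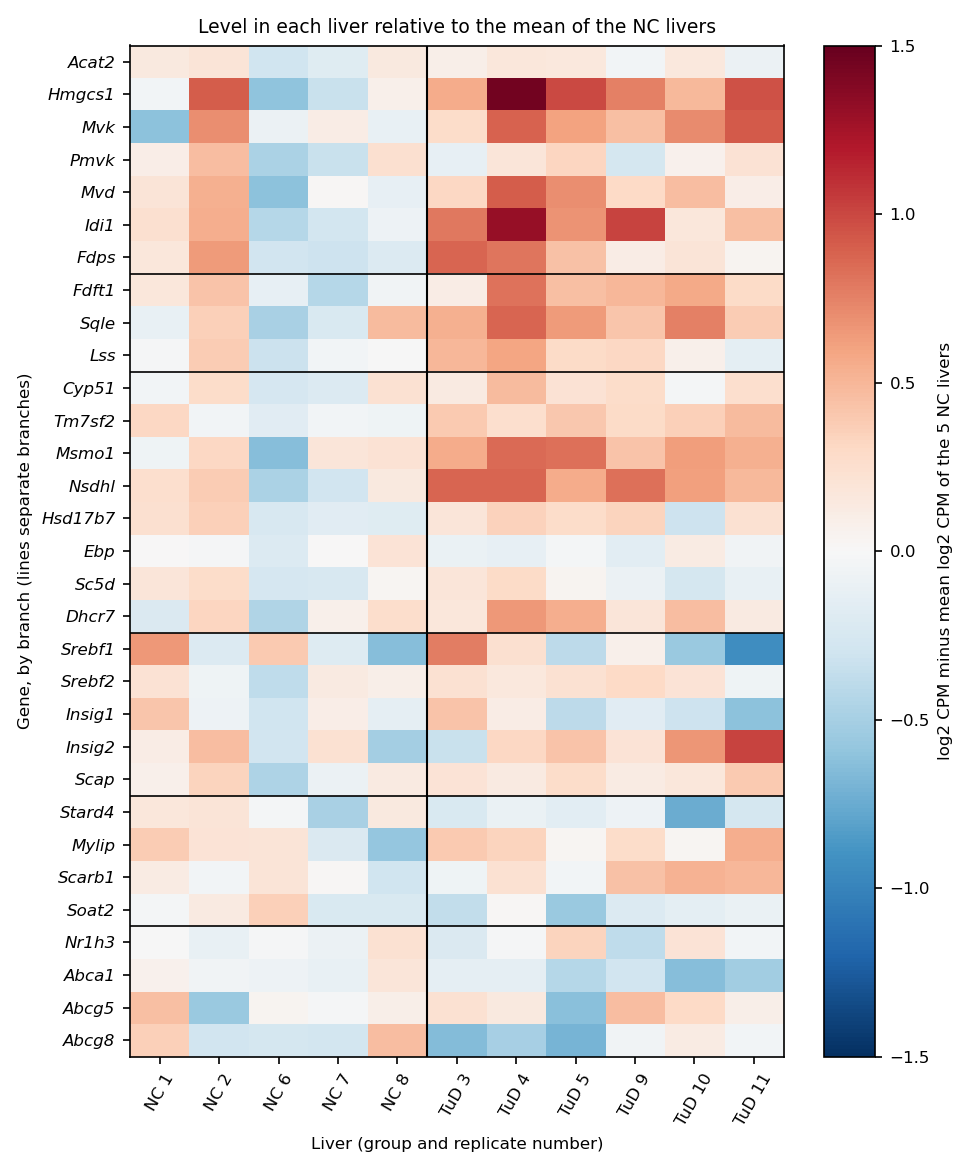
Level of each of the 31 genes (rows, grouped by branch) in each liver (columns, AAV-NC on the left and AAV-TuD on the right) as log2 CPM minus the mean log2 CPM of the 5 AAV-NC livers, the largest value plotted being 1.44. Most enzyme rows are red in the AAV-TuD livers, AAV-NC 2 is red and AAV-NC 6 blue in most of them, and the *Abca1* row is blue in all 6 AAV-TuD livers.

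The genes that sense sterols did not pass the test. *Srebf2*, the SREBP that mainly drives sterol synthesis, stood at 28.9, 23.8, 19.0, 27.3 and 26.5 CPM in AAV-NC livers 1, 2, 6, 7 and 8. With AAV-TuD it lay between 23.7 and 30.4 CPM, a log2 fold change of 0.16 (95% interval -0.06 to 0.39, adjusted p = 0.34). *Srebf1*, which mainly drives fatty acid synthesis, spread over 28.3 to 69.6 CPM in AAV-NC and 23.2 to 75.5 CPM in AAV-TuD livers, so that its fold change was poorly known (-0.10, interval -0.67 to 0.48). *Scap*, the escort protein, lay at 0.20 (-0.05 to 0.44). These are transcript levels, and the cleavage that activates the SREBP proteins was not measured.

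The INSIG genes, which hold the SCAP complex in the endoplasmic reticulum, also spread widely. *Insig1*, itself a known SREBP target, ranged from 131 to 215 CPM in AAV-NC and from 105.6 to 217 CPM in AAV-TuD livers (log2 fold change -0.14, interval -0.49 to 0.21). Its levels in AAV-TuD livers were highest in AAV-TuD 3 and lowest in AAV-TuD 11, where *Srebf1* was also at its highest and lowest. *Insig2* ranged from 37.3 to 73.5 CPM in AAV-NC and from 42.4 to 107.6 CPM in AAV-TuD livers (0.40, interval -0.03 to 0.83, adjusted p = 0.23), with AAV-TuD 3 the lowest of its group and AAV-TuD 11 the highest.

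None of the 4 genes of sterol carriage, receptor control and storage was called. *Scarb1*, the receptor that takes up cholesterol esters from high-density lipoprotein, stood at 64.9, 58.0, 68.3, 60.6 and 48.5 CPM in AAV-NC livers 1, 2, 6, 7 and 8, and 4 of 6 AAV-TuD livers lay above all of these. Its log2 fold change was 0.28 (95% interval 0.02 to 0.53, adjusted p = 0.16). It was called when the 3 livers richest in Mup reads, AAV-NC 7, AAV-TuD 3 and AAV-TuD 5, were left out together (0.42, adjusted p = 0.030). *Mylip*, a ubiquitin ligase that marks lipoprotein receptors for degradation, had few reads, 59.5 per liver on average, and a log2 fold change of 0.25 (-0.12 to 0.61).

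*Stard4*, which carries sterols between membranes, ranged from 42.1 to 67.5 CPM in AAV-NC and from 35.2 to 55.9 CPM in AAV-TuD livers, and its log2 fold change was -0.27 (95% interval -0.54 to 0.01, adjusted p = 0.21). *Soat2*, which esterifies cholesterol for storage and secretion, had a log2 fold change of -0.23 (-0.51 to 0.05, adjusted p = 0.30). Part of the 3′ end of *Soat2* is a repeat with up to 95.4% identity to sequence in 240 other genes, so its reads are uncertain.

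Among the LXR and efflux genes *Abca1* fell and the other 3 were not called. *Abca1* (chr4:53030787-53159895), the transporter that loads cholesterol onto apolipoprotein A-I for nascent high-density lipoprotein, stood at 88.7, 82.1, 80.9, 78.5 and 96.3 CPM in AAV-NC livers 1, 2, 6, 7 and 8. In the AAV-TuD livers its level ran from 54.8 to 77.6 CPM around a median of 66.4 CPM. All 6 AAV-TuD livers lay below all 5 AAV-NC livers, by a narrow gap between AAV-NC 7 and AAV-TuD 3. *Abca1* was the only member to do so (1 of 31, near the 3.28% of all genes). The mean fell from 85.3 ± 7.21 (SD, n = 5) to 67.0 ± 9.41 CPM (n = 6), a log2 fold change of -0.35 ± 0.096 (SE, adjusted p = 0.028, edgeR).

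The call of *Abca1* depended on the scaling and on single livers. With library size alone its log2 fold change was -0.13 (adjusted p = 0.67), which is -0.36 relative to the median of all genes under that scaling. It was also not called when any of AAV-NC 1 or 8 or AAV-TuD 5, 10 or 11 was left out (-0.34 to -0.29, adjusted p from 0.053 to 0.070). A ratio within each liver needs no scaling: per 100 reads of the 18 enzymes, *Abca1* had 6.33, 4.917, 7.64, 6.58 and 6.77 reads in AAV-NC livers 1, 2, 6, 7 and 8. In AAV-TuD livers it had between 3.74 and 4.909, with a median of 3.98. The groups did not overlap in this ratio, although AAV-NC 2 and AAV-TuD 3 differed in the third digit only. It is no separate support for the call, since *Abca1* already separated the groups and most enzymes were higher in the same AAV-TuD livers. The largest parts of the denominator were *Sc5d* and *Ebp* (means of 385 and 229 CPM in AAV-NC livers), which were not called. It also includes the 6 enzymes that rose, so the ratio shows unequal change and not that *Abca1* alone changed.

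The other 3 LXR and efflux genes had intervals that held 0. *Nr1h3*, which encodes LXR alpha, lay at -0.01 (95% interval -0.26 to 0.24, adjusted p = 0.97), with 32.4 to 40.8 CPM in AAV-NC and 26.7 to 44.0 CPM in AAV-TuD livers. *Abcg5* and *Abcg8*, which together encode the transporter that moves sterols into bile, lie head to head on chromosome 17 with 82 exonic bases in common. They had log2 fold changes of 0.10 (-0.27 to 0.48) and -0.31 (-0.70 to 0.08), with adjusted p of 0.77 and 0.31. AAV-TuD 3, 4 and 5 were the lowest livers of all for *Abcg8*, at 9.67, 10.8 and 9.35 CPM, while AAV-TuD 9, 10 and 11 lay within the AAV-NC range of 12.5 to 20.8 CPM.

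**Figure D4:**
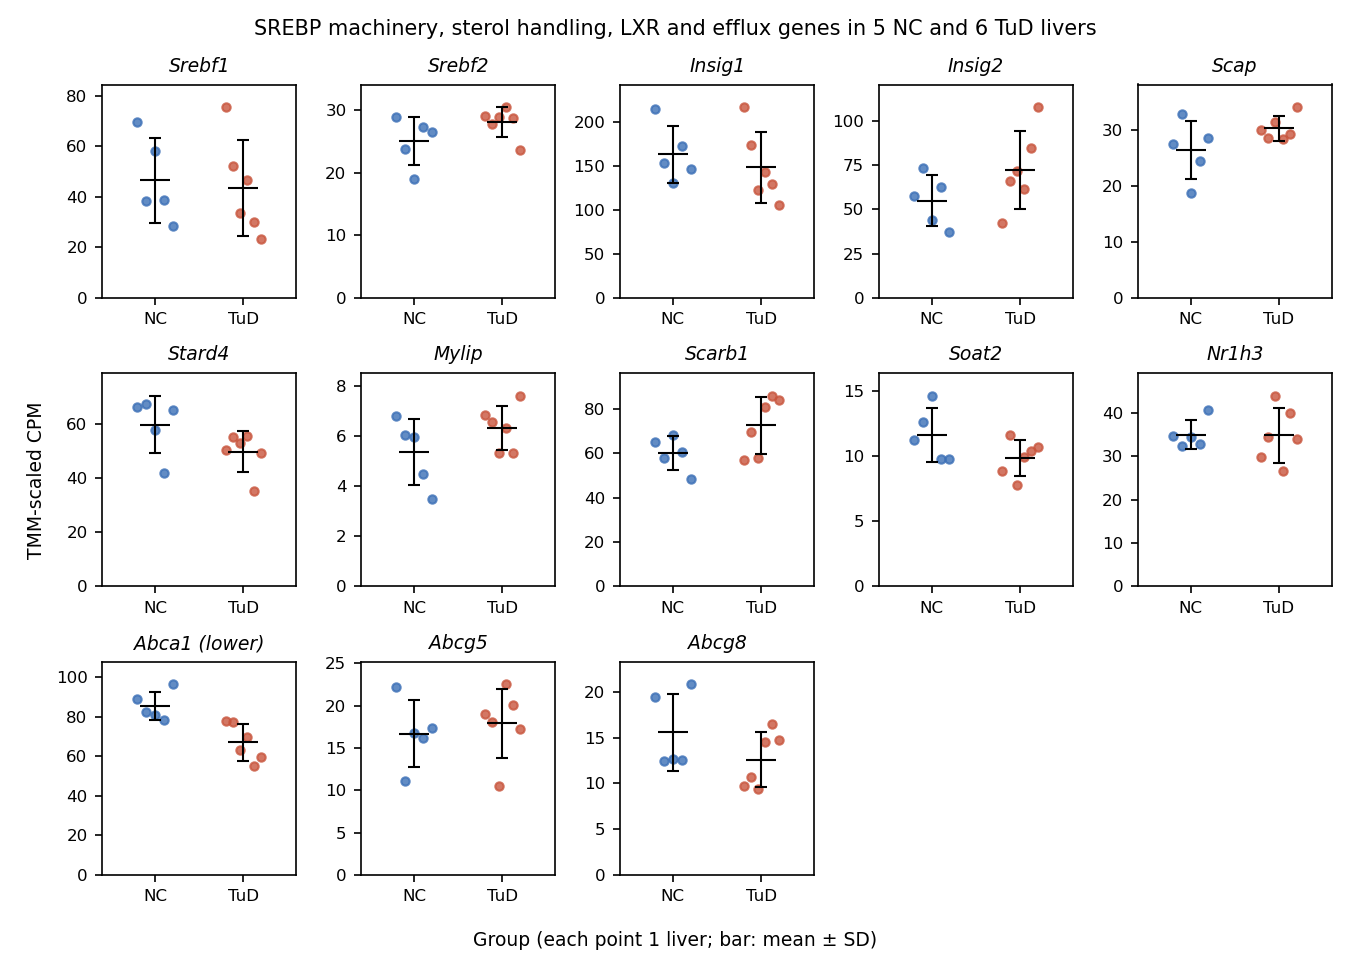
TMM-scaled CPM (vertical axes, from 0) of the 13 members outside the synthesis pathway in 5 AAV-NC (NC) and 6 AAV-TuD (TuD) livers, each point 1 liver, with the mean and SD as bars. Only *Abca1* separates the groups, with all AAV-TuD livers at or under 77.6 CPM and all AAV-NC livers at or above 78.5 CPM.

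A list of 30 further genes of sterol handling, chosen for their roles, was read from the same fit. In the AAV-TuD group, 2 of the 30 were higher (6.67%, near the 7.24% of all genes), 1 was lower and 27 were not called, with a median log2 fold change of 0.04. *Gramd1b*, which carries cholesterol from the plasma membrane to the endoplasmic reticulum, rose from 3.18 ± 1.72 (SD, n = 5) to 8.10 ± 1.37 CPM (n = 6), a log2 fold change of 1.35 ± 0.26 (SE, adjusted p = 0.0047, edgeR), and its groups did not overlap. *Soat1*, the esterifying enzyme of most tissues other than hepatocytes and enterocytes, rose from 3.13 ± 0.463 to 4.83 ± 0.991 CPM (0.61 ± 0.18, adjusted p = 0.039). *Cyp27a1*, the sterol hydroxylase that makes an oxysterol and opens a route to bile acids, fell from 283 ± 26.1 to 209 ± 21.8 CPM (-0.44 ± 0.086, adjusted p = 0.0049), and its groups did not overlap. The levels of *Soat1* and *Gramd1b* are low, and 5 of 7 macrophage and 7 of 7 stellate cell markers were higher in the AAV-TuD group, although the summed macrophage markers of AAV-TuD 3 (85.9 CPM) lay within the AAV-NC range. The part of these markers in the results was not tested.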

How the data were processed

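Liver RNA was measured in 5 AAV-NC and 6 AAV-TuD mice by 3′ mRNA sequencing. Per the study's methods the authors trimmed reads with BBDuk, aligned them with STAR and counted them with Rsubread; the submitters' processing notes name STAR 2.5.3a, DESeq2 1.38.3, GRCm38 and mm10. The gene annotation and the strand setting are not given in the sources used here. The deposited values are raw counts per gene, not normalized, and all 13669 genes had at least 10 reads in at least 5 livers. No column belonged to another sample (0 unused).

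Counts were tested with edgeR 4.0.16 (R 4.3.3, limma 3.58.1; quasi-likelihood test, TMM factors, 1 factor for the group) over 13334 genes, a gene being kept if 5 or more livers each held over 10 of its reads. Genes were called at a Benjamini-Hochberg adjusted p below 0.05 over all genes tested. The authors used DESeq2, which was run here (1.42.0) as an alternative. The standard error is the size of the log2 fold change divided by the square root of the F statistic, and 95% intervals use the t quantile at the degrees of freedom of the fit. Mean levels are TMM-scaled CPM. The precision set by depth is included in the spread between livers.

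All 31 members are described. Of the related sterol genes those past the threshold are named, and of each marker list at most the 2 most abundant. Members and lists were chosen with earlier results of these data known. Gene positions and overlaps come from GENCODE M21 (GRCm38), and promoters and mature microRNAs from RefSeq (GRCm38.p6). Alternatives were 3 other scalings, no filter, DESeq2, removal of the 22 Mup genes, each liver left out in turn, and, added after the data were seen, the 3 livers with the most Mup reads left out together. No libraries of a group agreed within counting noise (lowest chi-square per degree of freedom 7.21), so each was counted as 1 liver. Scripts were tested on simulated data.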

Additional observations from a re-analysis of the deposited data

Results flagged for a closer look

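In 80 groups of values (31 genes and the liver-wide measures, in each group of livers) there were 6 in which a single liver stood apart from the rest (7.5%), and chance alone gives about 1 in 20. Each is given with its gap to the nearest liver as a share of the range of the group. AAV-NC 1 was the highest in *Tm7sf2*, with 19.7 CPM beside 14.1 to 15.4 CPM (gap 0.762), and without it the fold change of this gene was the largest of those with 1 liver left out. AAV-TuD 10 was the lowest in *Hsd17b7*, with 35.7 CPM beside 50.1 to 56.1 CPM (gap 0.703), and in *Stard4*, with 35.2 CPM beside 49.2 to 55.9 CPM (gap 0.680). AAV-NC 8 was the highest in *Nr1h3*, with 40.8 CPM beside 32.4 to 34.6 CPM (gap 0.731). AAV-NC 7 had the highest share of Mup reads, 38.6% beside 13.8% to 18.7% (gap 0.804), and AAV-TuD 9 the highest summed level of hepatocyte markers, 50935 beside 43128 to 45236 CPM (gap 0.730).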

How the results depend on the processing

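The 31 fold changes were recomputed under 18 alternatives, and 485 of the 558 values kept their direction and their side of the threshold. With library size alone 12 members were higher and 0 lower, and 71 of all genes were lower in place of 577. Without the 3 livers with the most Mup reads, an alternative chosen after seeing the data, 3 members were higher and 1 was lower. With 1 liver left out at a time, 2 to 9 members were higher and 0 to 1 lower, and over all genes 675 to 1115 were higher and 337 to 714 lower. Each of the 27 changes of sign concerned a member that was not called. With library size alone the log2 fold changes of *Ebp* (0.17), *Srebf1* (0.10), *Insig1* (0.090), *Soat2* (0.0086) and *Nr1h3* (0.21) turned positive. *Sc5d* turned negative with DESeq2 size factors (-0.0036), no filter (-0.00051), DESeq2 (-0.0036), the Mup genes removed (-0.00043) and the 3 livers left out (-0.10), and *Pmvk* in the last of these (-0.053). With 1 liver left out the values ran from -0.0030 to 0.12 for *Acat2*, -0.068 to 0.16 for *Pmvk*, -0.059 to 0.076 for *Sc5d*, -0.32 to 0.093 for *Srebf1*, -0.082 to 0.062 for *Nr1h3* and -0.0091 to 0.23 for *Abcg5*. DESeq2 called 8 members higher and 1 lower. The cause of these shifts was not tested. Replicate numbers are not shared between the groups. No paired analysis was possible because no number occurs in both. The 5 and 6 livers limit the precision for members such as *Srebf1*, whose interval spans more than 1 on the log2 scale.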
